A study of Mus musculus with 6 samples.

Results

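Mucins and the glycosyltransferases that build the sugar chains of secreted and membrane proteins were examined in the lacrimal gland (LG), which supplies the aqueous part of the tear film. The members were every gene of the deposited table whose symbol began with Muc and a digit, Mucl, Galnt, C1galt, Gcnt, B3gnt, B4galt, St3gal, St6gal, Fut and a digit, or Mgat. These were 52 of 12491 rows, standing for 51 symbols because St6galnac2 had 2 rows under separate gene IDs, and they comprised 4 mucins and 48 enzyme rows.

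Poly(A) RNA was sequenced from the LG of C57BL/6 mice, 3 samples labelled as control (named vehicle here) and 3 labelled as type 2 diabetes mellitus (T2DM). Mice of the T2DM group ate a high-fat diet from 4 weeks of age, received streptozotocin (STZ), a toxin for the insulin-producing cells, at 50 mg/kg on 5 days after 6 weeks of that diet, and then kept to the diet for 24 weeks, whereas vehicle mice ate normal food and received the buffer. Diet and STZ can therefore not be told apart. The age on the labels is 24 weeks in both groups, which is shorter than this schedule takes, and the conflict could not be settled. Whether 1 gland or several went into a library is not given in the sources used here, so the spread that p-values rest on is that between libraries.

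Mucins are proteins whose serine- and threonine-rich stretches carry dense O-glycans, either anchored in the apical membrane of epithelial cells or secreted into the fluid above it, where they hold water and lubricate the ocular surface. An O-glycan starts when a GALNT enzyme links N-acetylgalactosamine to serine or threonine, is built up into a core, and is closed by sialic acid or fucose. An N-glycan is transferred whole to asparagine in the endoplasmic reticulum, trimmed, and then branched by the MGAT enzymes of the Golgi, while galactosyl-, fucosyl- and sialyltransferases extend and cap chains of both kinds and of glycolipids.

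The coding sequences of 3 mucins are shown because the serine and threonine codons in them are the sites at which O-glycans can begin. Sequences are from GENCODE M21 (GRCm38), written from 5′ to 3′ on the coding strand, with serine and threonine codons in capitals. Mucl2, on chromosome 15 (103895855 to 103899312, minus strand), is given from base 1 to 300 of its 441 coding bases, with 27 such codons, 14 for serine and 13 for threonine, among the first 100 codons. Muc1, on chromosome 3 (89229057 to 89233381, plus strand), is given from base 604 to 750 of its 1896 coding bases, and Muc20, on chromosome 16 (32777419 to 32797435, minus strand), from base 559 to 705 of 2067. Both stretches lie in tandem repeats, and 76.2% of the Muc1 bases and 78.6% of the Muc20 bases equalled the base 63 positions further on.
Mucl2: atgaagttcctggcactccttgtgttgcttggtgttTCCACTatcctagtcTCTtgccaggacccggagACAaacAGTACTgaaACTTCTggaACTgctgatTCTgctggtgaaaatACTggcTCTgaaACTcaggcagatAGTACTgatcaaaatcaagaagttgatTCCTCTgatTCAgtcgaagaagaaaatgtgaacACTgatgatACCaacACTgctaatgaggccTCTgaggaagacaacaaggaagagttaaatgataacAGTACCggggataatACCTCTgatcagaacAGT
Muc1: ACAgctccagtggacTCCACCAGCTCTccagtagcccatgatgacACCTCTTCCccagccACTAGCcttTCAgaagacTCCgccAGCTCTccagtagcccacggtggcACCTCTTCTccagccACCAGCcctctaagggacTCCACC
Muc20: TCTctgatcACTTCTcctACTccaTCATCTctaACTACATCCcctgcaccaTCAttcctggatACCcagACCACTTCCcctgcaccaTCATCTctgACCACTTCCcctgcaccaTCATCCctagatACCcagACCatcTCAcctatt

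In the 49 codons shown, 21 of Muc1 and 24 of Muc20 encode serine or threonine. Over the whole coding sequence the share was 35.2% in Muc20, 34.9% in Muc1, 24.0% in Mucl2 and 22.8% in Mucl1, against a median of 10.9% in the 48 enzyme rows (8.58% to 24.6%, the highest being the short second model of St6galnac2). Mucl1 and Mucl2 share 57 of their first 60 coding bases, which lie at the start of the coding sequence.

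Levels were given as FPKM, in which fragments per gene are divided by exon length and by library size. The limma test compared group means of log2(FPKM + 1), a scale that understates the change of genes with low FPKM. Of the 52 rows, 51 passed the minimum of a mean of 0.5 FPKM in one group. In the T2DM group 11 rows (21.6% of those tested) were higher and 1 (2.0%) was lower at an adjusted p under 0.05, against 10.5% higher, 1.70% lower and 12.2% in either direction among all 12135 genes tested. The rows that rose were the transmembrane mucins Muc1 and Muc20, the O-glycan enzymes Galnt15, B3gnt3, St6galnac1 and St6galnac2 (both rows), the N-glycan branching enzymes Mgat3, Mgat4a and Mgat4b, and the fucosyltransferase Fut9. B4galt6, an enzyme of glycolipid synthesis, fell. At the thresholds of the study's methods, an unadjusted p under 0.05 and a 1.5-fold change, 9 rows were higher and 1 lower, against 7.26% and 1.19% of all genes tested. The p used here was that of limma, whereas the study used Ballgown, and the fold was taken here on FPKM + 1.

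The median difference was 0.17 on the log2 scale over the 51 members and 0.16 over all genes tested, so the group as a whole lay where the table as a whole did. All T2DM libraries stood above all vehicle libraries in 18 members (35.3%) and below them in 3 (5.9%), against 33.8% and 6.10% of all genes tested, shares that were close to each other. The count of calls depended on the scaling of the libraries and on their number. A median-of-ratios scaling moved the median of all genes to 0.00. With it, 5 of 51 tested members were higher (Muc1, Mgat3, Mgat4a, Mgat4b and Fut9) and 3 lower (B4galt6, Galnt7 and Galnt10). Among all 12069 genes tested in that fit, 478 were higher and 481 lower. Higher calls made up 49.8% of all calls in the table rather than 86.1%. Scaling FPKM to the same sum in each library (TPM) moved that median to 0.36. With it, 17 of 51 tested members were higher and none was lower. Among all 12335 genes tested in that fit, 3443 were higher and 103 lower, so that 97.1% of all calls were higher. Leaving out vehicle replicate 1, 2 or 3 left 2, 1 and 0 members higher, and leaving out T2DM replicate 1, 2 or 3 left 3, 5 and 9. Calls among all genes shrank too in these fits, from 1271 higher genes to 464, 203 and 25 without vehicle replicate 1, 2 or 3. Without T2DM replicate 1, 2 or 3 they were 260, 760 and 886. In the fit without vehicle replicate 3, 16 members were higher and 2 lower at an unadjusted limma p under 0.05. Each of the 12 called rows kept the sign of its difference in every fit in which it was tested.

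**Figure D1:**
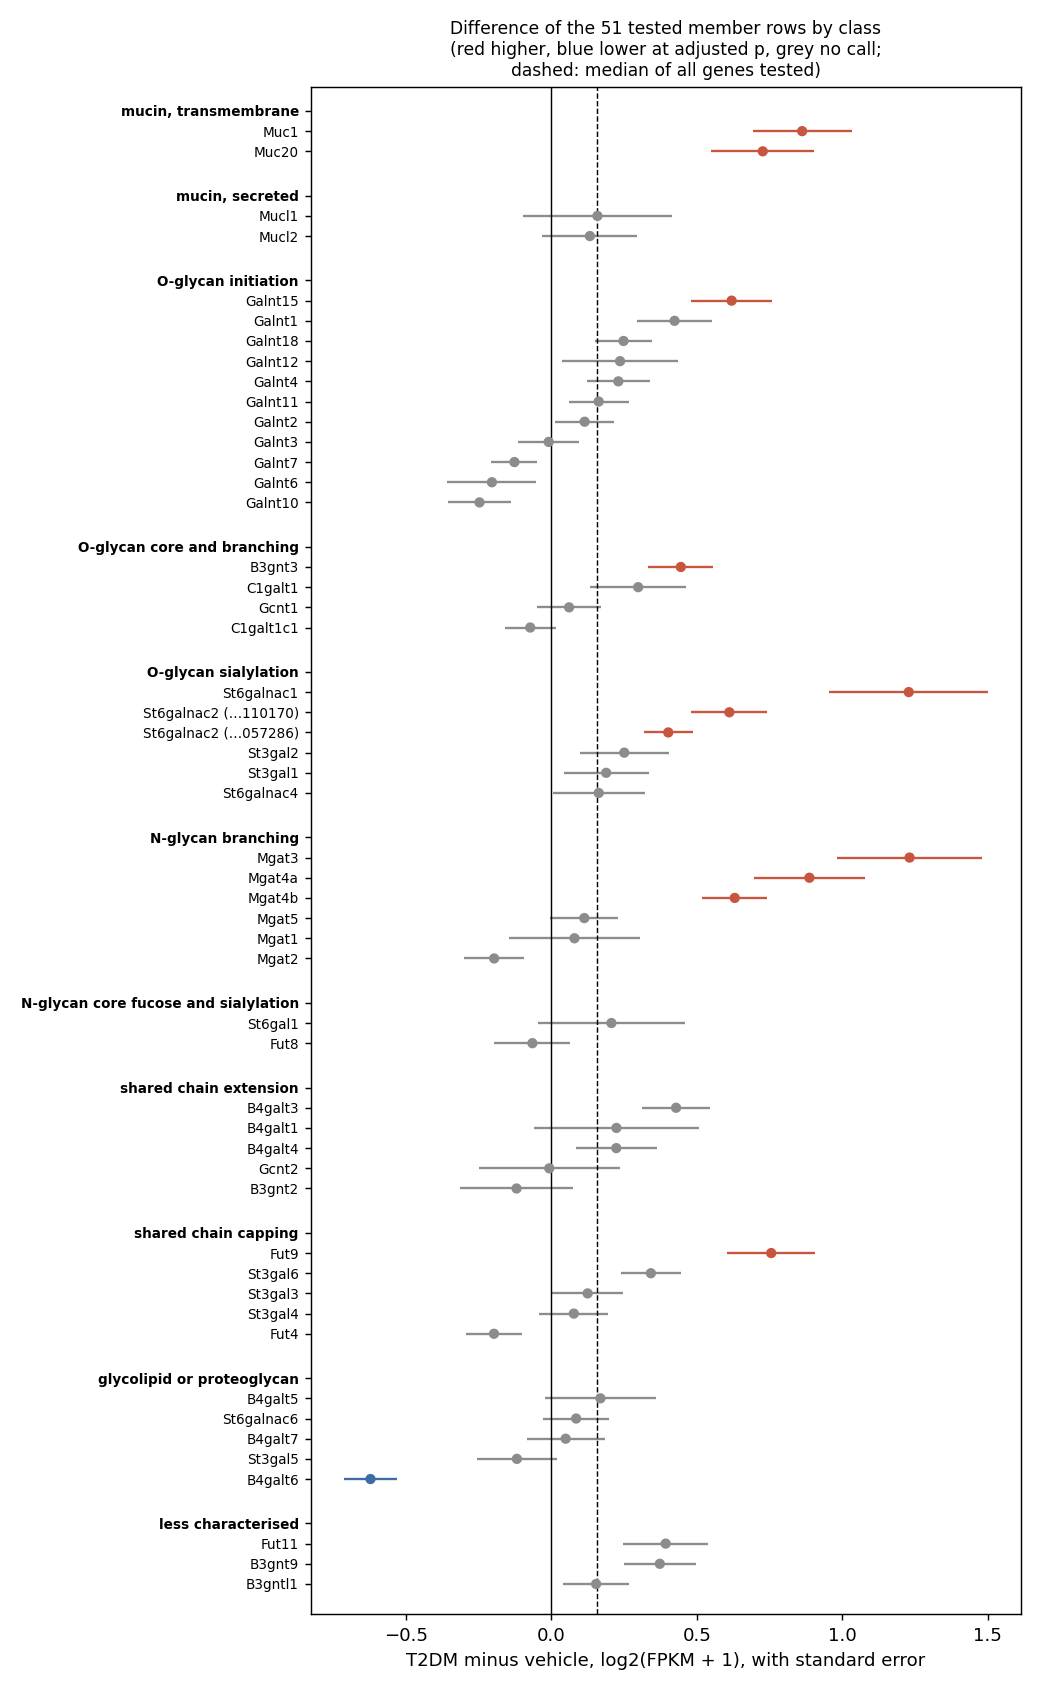
Difference between the T2DM and vehicle groups in mean log2(FPKM + 1) for the 51 tested member rows, grouped by the glycan class they act in, with the standard error of limma as bars; red marks the 11 rows that were higher and blue the 1 that was lower at an adjusted p under 0.05. Rows without a call lie on both sides of the dashed line, the median of all genes tested at 0.16.

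Both transmembrane mucins rose from a low level. Muc1, which spans the apical membrane of glandular epithelium and carries a long O-glycosylated ectodomain, was at 0.253, 0.541 and 0.415 FPKM in the 3 vehicle libraries and at 2.22, 1.38 and 1.13 FPKM in the 3 T2DM libraries, in the order of replicates 1, 2 and 3 that is kept for every gene. Every T2DM library lay above every vehicle library, and T2DM replicate 1 was highest. The group mean was 0.403 ± 0.144 FPKM for vehicle and 1.58 ± 0.571 FPKM for T2DM (SD, n = 3 each), a ratio of 3.92 and a log2 difference of 0.86 (SE 0.17, limma adjusted p = 0.0266). Muc20, a membrane-bound mucin found in renal and other epithelia, was at 0.498, 0.185 and 0.352 FPKM in the vehicle group and at 1.59, 1.44 and 0.721 FPKM in the T2DM group. The groups did not overlap, although T2DM replicate 3 stood nearer to the vehicle libraries than to the other T2DM libraries. Its log2 difference was 0.73 (SE 0.18, limma adjusted p = 0.0401). Muc20 overlaps Muc4 on the opposite strand; the library kit marked strand, but whether strand was used in counting is not given in the sources used here. Under a stricter minimum, a mean of 1 FPKM over all libraries, neither of these mucins was tested. With the median-of-ratios scaling Muc1 kept its call and Muc20 did not.

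The secreted mucin-like genes did not pass the test, and one of them dominated the group by abundance. Mucl2, a small secreted mucin-like protein, was at 14841, 14270 and 18449 FPKM in the vehicle group and at 16641, 14906 and 20728 FPKM in the T2DM group. The groups overlapped, and replicate 3 was the highest of each. It made up 97.5% to 98.3% of the summed FPKM of the 52 rows and ranked between 11 and 13 among all genes of a library. The log2 difference was 0.13 (SE 0.16, limma adjusted p = 0.597), and it turned to -0.07 with the median-of-ratios scaling and to 0.38 with the TPM scaling, neither of them a call. Its share of the summed FPKM of a library was 1.81% to 2.20% in the vehicle group and 2.15% to 3.05% in the T2DM group, ranges that overlapped slightly. Mucl1, a related gene on chromosome 15 (103751919 to 103755469, minus strand), was at 0.245, 0.367 and 0.407 FPKM in the vehicle group. In the T2DM group, it was listed at 0 in replicate 1 and was at 1.19 and 0.518 FPKM in replicates 2 and 3, so that the T2DM libraries lay on both sides of the vehicle libraries (limma adjusted p = 0.692). The gel-forming mucins that goblet cells release, such as Muc5ac, and Muc4 had no row among the 12491. The same held for 45 of the 96 symbols in the list used to assign classes, so no level can be given for them.

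Of the 11 tested members of the Galnt family, which starts O-glycans, 1 was higher and none lower, a share near the 10.5% and 1.70% of all genes tested. The summed FPKM of the 12 rows was 102 to 112 in the vehicle group and 109 to 112 in the T2DM group. Galnt15 (chromosome 14, 32028989 to 32062197) was at 1.124, 1.34 and 0.940 FPKM in the vehicle group and at 2.54, 1.75 and 2.59 FPKM in the T2DM group. All T2DM libraries lay above all vehicle libraries, the closest being T2DM replicate 2. Its mean was 1.13 ± 0.200 FPKM for vehicle and 2.29 ± 0.474 FPKM for T2DM (SD, n = 3 each), with a log2 difference of 0.62 (SE 0.14, limma adjusted p = 0.0345).

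The abundant members of the family did not follow Galnt15. Galnt3, which in mouse and human O-glycosylates the hormone FGF23, held 35.5% of the summed Galnt FPKM on average and was at 39.0 ± 4.48 FPKM in the vehicle and 38.6 ± 2.43 FPKM in the T2DM group (SD, n = 3 each, limma adjusted p = 0.960). Galnt10, which prefers peptides that already carry N-acetylgalactosamine, was at 20.4, 20.2 and 16.3 FPKM in the vehicle group and at 15.7, 14.8 and 16.8 FPKM in the T2DM group (limma adjusted p = 0.160). T2DM replicate 3 lay within the vehicle range. Galnt7, with the same preference, was at 16.5, 17.8 and 16.6 FPKM in the vehicle group and at 15.7, 15.3 and 15.4 FPKM in the T2DM group. Its groups did not overlap, yet the difference of -0.13 on the log2 scale missed the threshold (SE 0.08, limma adjusted p = 0.296). Both Galnt7 and Galnt10 were lower with the median-of-ratios scaling (limma adjusted p = 0.0475 and 0.0427), and Galnt7 had a positive difference of 0.10 with the TPM scaling. Galnt1, Galnt4 and Galnt18 were at mean levels of 3.53, 4.25 and 10.2 FPKM in the vehicle group and of 5.03, 5.13 and 12.3 FPKM in the T2DM group. Those 3 genes had all T2DM libraries above all vehicle libraries without passing the test (limma adjusted p = 0.0679, 0.178 and 0.125). Galntl5 was under the minimum in both groups, at 0.303 ± 0.205 and 0.075 ± 0.072 FPKM (SD, n = 3 each), and was not tested.

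Among the 4 tested genes that form O-glycan cores and branches, 1 was higher and none lower, against 10.5% and 1.70% of all genes tested. The higher gene was B3gnt3, which extends core 1 chains with N-acetylglucosamine. It was at 0.599, 0.871 and 0.615 FPKM in the vehicle group and at 1.42, 1.33 and 1.16 FPKM in the T2DM group. The groups did not overlap, and the T2DM libraries were close to each other. The log2 difference was 0.44 (SE 0.11, limma adjusted p = 0.0429), the largest adjusted p of the called rows. C1galt1c1, the chaperone that core 1 synthase needs, was the most abundant of the 4, at 27.3 ± 1.84 and 25.9 ± 1.36 FPKM (SD, n = 3 each, limma adjusted p = 0.587). The core 1 synthase C1galt1 itself was at 0.665, 1.52 and 0.751 FPKM in the vehicle group and at 1.35, 1.37 and 1.45 FPKM in the T2DM group, with overlapping groups (limma adjusted p = 0.242).

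The O-glycan sialyltransferases had the largest increase in summed FPKM of any enzyme class. Of 6 tested rows 3 were higher and none lower, against 10.5% and 1.70% of all genes tested. The summed FPKM of the 6 rows was 49.7 to 52.8 in the vehicle libraries and 121, 78.2 and 78.3 in T2DM replicates 1, 2 and 3. St6galnac1 and St6galnac2 supplied 92.0% to 96.7% of that sum. St6galnac1 (chromosome 11, 116765025 to 116775507), which adds sialic acid to the first N-acetylgalactosamine and so makes the sialyl-Tn antigen, was at 16.3, 18.0 and 19.5 FPKM in the vehicle group and at 71.7, 32.2 and 35.0 FPKM in the T2DM group. All T2DM libraries were above the vehicle libraries, and T2DM replicate 1 was at about double the level of the other T2DM libraries. The mean went from 17.9 ± 1.61 to 46.3 ± 22.1 FPKM (SD, n = 3 each), a log2 difference of 1.23 (SE 0.27, limma adjusted p = 0.0336).

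St6galnac2, which sialylates the N-acetylgalactosamine of core 1 chains, has 2 rows on chromosome 11. The longer gene model (116675303 to 116694868) was at 26.1, 23.7 and 24.7 FPKM in the vehicle group and at 34.6, 33.5 and 31.3 FPKM in the T2DM group. It was the most even of the rises, with each group spread over a narrow range and no overlap (log2 difference 0.40, SE 0.08, limma adjusted p = 0.0294). The shorter model (116677483 to 116681290) lies inside the longer one on the same strand, so reads may have been divided between them and the split is uncertain. It was at 5.30, 6.13 and 5.45 FPKM in the vehicle group and at 10.9, 8.97 and 7.68 FPKM in the T2DM group (log2 difference 0.61, SE 0.13, limma adjusted p = 0.0311). The coding sequence of the shorter model has 24.6% serine or threonine codons and 22.15% proline codons, against 14.2% and 5.9% in the longer one. Whether the shorter model encodes the same enzyme was not tested. Counted without St6galnac2, 9 of 49 tested members were higher. With the median-of-ratios scaling none of these 3 rows kept its call, and St6galnac1 had an adjusted p of 0.0506 from limma. The sialyltransferases of the core 1 galactose, St3gal1 and St3gal2, were at 1.72 ± 0.455 and 0.905 ± 0.393 FPKM in the vehicle group and at 2.07 ± 0.241 and 1.24 ± 0.0909 FPKM in the T2DM group (SD, n = 3 each), and neither passed the test (limma adjusted p = 0.394 and 0.285).

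**Figure D2:**
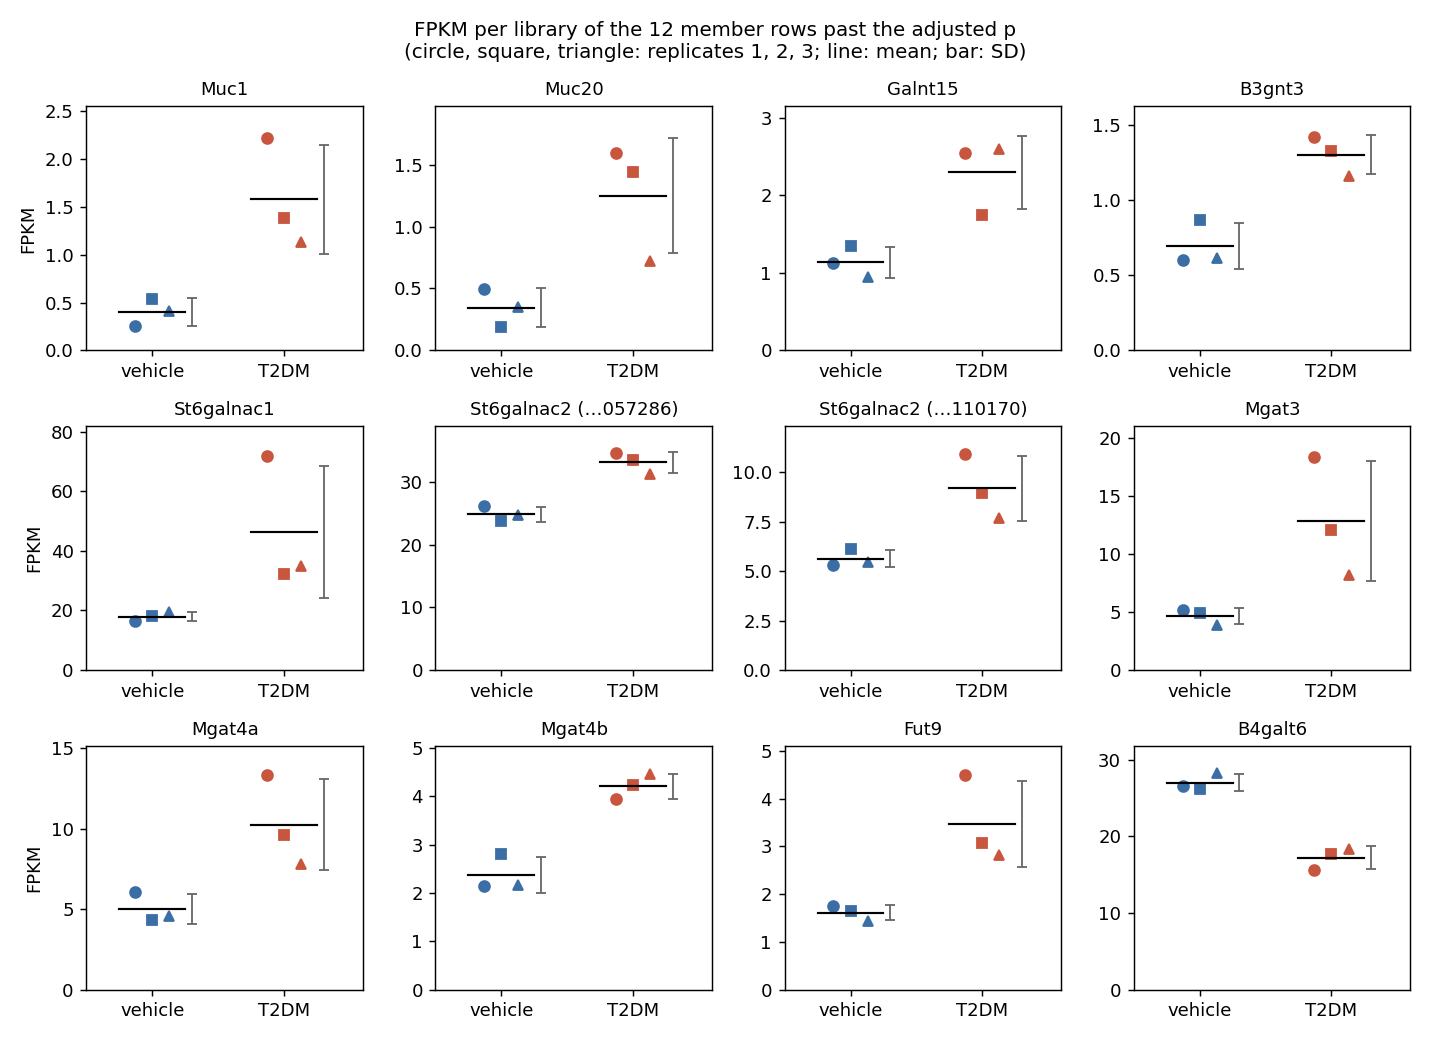
FPKM in each library of the 12 member rows past the adjusted p, with vehicle libraries in blue and T2DM libraries in red, the group mean as a line and the SD as a bar (n = 3 each). In all 12 panels the groups do not overlap, and T2DM replicate 1 (circle) stands far above the other T2DM libraries for St6galnac1, at 71.7 FPKM against 32.2 and 35.0.

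Of the 6 enzymes that branch N-glycans, 3 were higher and none lower, against 10.5% and 1.70% of all genes tested. Mgat3 (chromosome 15, 80173721 to 80215519), which adds the bisecting N-acetylglucosamine, was at 5.17, 4.95 and 3.87 FPKM in the vehicle group and at 18.4, 12.04 and 8.15 FPKM in the T2DM group. No T2DM library reached down to the vehicle range, but the T2DM libraries themselves were spread more than 2-fold. The mean went from 4.66 ± 0.692 to 12.9 ± 5.17 FPKM (SD, n = 3 each), a ratio of 2.76 and a log2 difference of 1.23 (SE 0.25, limma adjusted p = 0.0282).

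Both enzymes that start the third antenna on the core also rose. Mgat4a (chromosome 1, 37439340 to 37541016) was at 6.08, 4.35 and 4.57 FPKM in the vehicle group and at 13.3, 9.58 and 7.80 FPKM in the T2DM group. The T2DM libraries stood in the same order as for Mgat3, and all lay above the vehicle libraries (log2 difference 0.89, SE 0.19, limma adjusted p = 0.0313). Mgat4b (chromosome 11, 50210890 to 50235103) was at 2.15, 2.81 and 2.17 FPKM in the vehicle group and at 3.94, 4.23 and 4.45 FPKM in the T2DM group. Here the order of the T2DM libraries was the opposite and their spread was small, and the log2 difference was 0.63 (SE 0.11, limma adjusted p = 0.0219), the smallest adjusted p among the rows that rose. These 3 genes kept their calls with the median-of-ratios scaling.

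The enzymes around them in the same pathway did not pass the test. Mgat2, which opens the second antenna and was the most abundant of the class, was at 36.4, 36.8 and 34.0 FPKM in the vehicle group and at 30.5, 35.1 and 27.9 FPKM in the T2DM group, with T2DM replicate 2 inside the vehicle range (limma adjusted p = 0.218). Mgat1, which adds the first N-acetylglucosamine, was at 2.50 ± 1.26 and 2.57 ± 0.311 FPKM, and Mgat5, which starts a further antenna, was at 0.498 ± 0.0509 and 0.626 ± 0.176 FPKM (SD, n = 3 each). Fut8, the enzyme of core fucose, was at 9.34 ± 1.21 and 8.88 ± 1.204 FPKM, and St6gal1, which caps N-glycan antennae with sialic acid, at 1.73 ± 0.510 and 2.24 ± 1.0 FPKM (SD, n = 3 each). The adjusted p of these 4 genes was at least 0.524 in limma. The summed FPKM of the branching class, which Mgat2 dominates, was 46.8 to 54.3 in the vehicle group and 51.2 to 69.7 in the T2DM group, so that the groups overlapped.

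By glycan type, 5 of the 21 tested rows in the O-glycan classes and 3 of the 8 in the N-glycan classes were higher. Their median log2 differences were 0.23 and 0.16. The classes follow textbook role and do not show that an enzyme acts on that glycan type alone. Of the 5 O-glycan rows, 2 are the overlapping models of St6galnac2. With the median-of-ratios scaling, and likewise with a replicate block, 0 of the O-glycan rows and 3 of the N-glycan rows were higher. Among all genes tested, 478 of 12069 were higher with that scaling and 551 of 12135 with the block. The share of higher calls among all genes was 10.5% in the reported fit. The rows are few, and whether the types differ from each other was not tested.

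**Figure D3:**
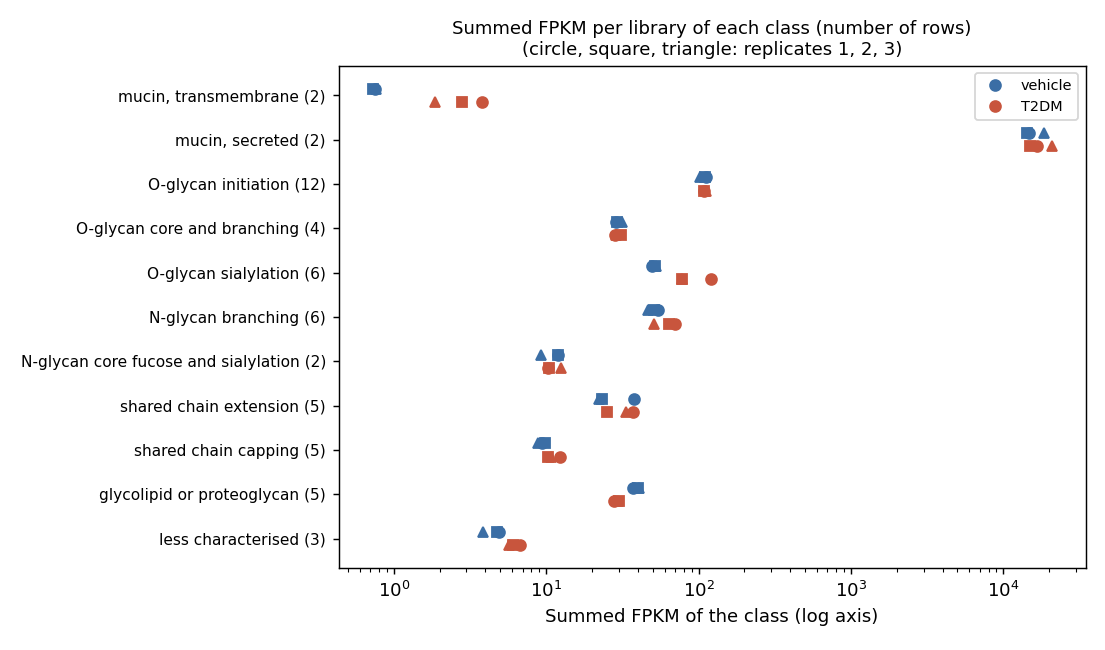
Summed FPKM of each class in each library on a log axis, with the number of rows in brackets, vehicle libraries in blue and T2DM libraries in red. The O-glycan sialylation class lies at 49.7 to 52.8 in the vehicle and at 78.2 to 121 in the T2DM libraries, whereas the O-glycan initiation class overlaps at 102 to 112 and 109 to 112.

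Of 10 tested enzymes that extend or cap chains of more than one glycan type 1 was higher, a share near the 10.5% of all genes tested. Fut9 (chromosome 4, 25609332 to 25800244), which adds the fucose of the Lewis x structure, was at 1.76, 1.64 and 1.44 FPKM in the vehicle group and at 4.49, 3.06 and 2.82 FPKM in the T2DM group. The groups did not overlap, and T2DM replicate 1 was highest (ratio of means 2.15, log2 difference 0.76, SE 0.15, limma adjusted p = 0.0272). Fut4, which can make the same structure, was at 5.08, 5.46 and 4.82 FPKM in the vehicle group and at 4.002, 4.70 and 4.31 FPKM in the T2DM group. It lay below the vehicle range in each T2DM library without passing the test (log2 difference -0.20, SE 0.10, limma adjusted p = 0.197).

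B4galt1, the main galactosyltransferase for lactosamine units, varied more within groups than between them, at 30.3, 16.4 and 15.5 FPKM in the vehicle group and at 29.3, 16.6 and 25.9 FPKM in the T2DM group (limma adjusted p = 0.608). B4galt3, a related enzyme that overlaps Ppox on the opposite strand, was at 1.66, 1.93 and 1.46 FPKM in the vehicle group and at 2.99, 2.39 and 2.45 FPKM in the T2DM group. Its groups did not overlap and it lay just outside the threshold (log2 difference 0.43, SE 0.12, limma adjusted p = 0.0518), and it was called higher with a pseudocount of 0.1. B3gnt2, which lengthens lactosamine chains, was at 2.52 ± 0.168 and 2.32 ± 0.865 FPKM (SD, n = 3 each). Among the sialyltransferases of such chains, St3gal6 had the smallest adjusted p without a call, at 0.573 ± 0.0546 and 0.995 ± 0.126 FPKM (SD, n = 3 each, limma adjusted p = 0.0670).

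B4galt6 was the 1 member that fell, and it acts on glycolipids rather than on mucins. With B4galt5 it makes lactosylceramide, the parent of most glycosphingolipids. On chromosome 18 (20684599 to 20746404, minus strand), it was at 26.5, 26.2 and 28.3 FPKM in the vehicle group and at 15.6, 17.7 and 18.4 FPKM in the T2DM group. The gap between the groups was wide against the spread within each, and the mean fell from 27.0 ± 1.15 to 17.2 ± 1.46 FPKM (SD, n = 3 each), a log2 difference of -0.62 (SE 0.09, limma adjusted p = 0.0165). It kept this direction under each scaling, but missed the threshold with the TPM scaling (limma adjusted p = 0.0571) and without vehicle replicate 3 (limma adjusted p = 0.0659). B4galt5 was far lower, at 1.122 ± 0.537 and 1.34 ± 0.254 FPKM, and St3gal5, which turns lactosylceramide into the ganglioside GM3, was at 6.94 ± 1.202 and 6.28 ± 0.729 FPKM (SD, n = 3 each); neither passed the test (limma adjusted p = 0.560 and 0.571). B4galt7, which builds the linker of proteoglycans, and St6galnac6, a ganglioside sialyltransferase, also had overlapping groups. Of the less characterised members, Fut11 and B3gnt9 had all T2DM libraries above all vehicle libraries without a call (limma adjusted p = 0.111 and 0.0852), and B3gntl1 had overlapping groups.

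The supply of sugars and the earlier N-glycan steps were read from lists of further genes. Of 23 tested genes for sugar nucleotides and their import into the Golgi, 2 were higher and 3 lower, against 10.5% and 1.70% of all genes tested. Gfpt1, the rate-limiting enzyme of the hexosamine pathway that leads to UDP-N-acetylglucosamine, was at 33.6, 31.4 and 29.7 FPKM in the vehicle group and at 22.9, 21.6 and 21.5 FPKM in the T2DM group (log2 difference -0.50, SE 0.08, limma adjusted p = 0.0196). Gnpnat1, the acetylating enzyme of the same pathway, fell from 7.77 ± 0.638 to 4.92 ± 0.684 FPKM, and Nanp, which completes free sialic acid, rose from 3.35 ± 0.152 to 5.19 ± 0.358 FPKM (SD, n = 3 each, limma adjusted p = 0.0272 and 0.0231). Groups did not overlap in any of these 3 genes. Of 29 tested genes that assemble and transfer the N-glycan precursor, none was higher and 2 were lower, against the same 10.5% and 1.70%. The 2 were the oligosaccharyltransferase subunits Ostc (27.9 ± 0.536 to 20.1 ± 1.79 FPKM) and Ost4 (57.9 ± 2.12 to 46.2 ± 1.37 FPKM; SD, n = 3 each, limma adjusted p = 0.0269 and 0.0398). The median log2 difference of that list was -0.03, against 0.16 over all genes. Among 9 tested trimming enzymes there was no call in limma.

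Among further capping and sulfating enzymes, 4 of 12 tested genes were higher and none lower, against 10.5% and 1.70% of all genes tested. B4galnt2, which makes the Sda antigen on terminal galactose, was at 13.3, 12.3 and 10.002 FPKM in the vehicle group and at 28.4, 25.2 and 22.6 FPKM in the T2DM group (log2 difference 1.04, SE 0.13, limma adjusted p = 0.0123). Gal3st2, which sulfates galactose, rose from 61.1 ± 6.40 to 91.2 ± 4.70 FPKM, and B3galt5, which builds type 1 chains, from 0.405 ± 0.0611 to 1.26 ± 0.371 FPKM (SD, n = 3 each, limma adjusted p = 0.0206 and 0.0291). Of 3 tested partners of mucus secretion, 1 was higher and 1 lower, against the same 10.5% and 1.70%. Fcgbp, a mucus-associated protein, rose from 24.8 ± 2.13 to 75.4 ± 28.5 FPKM, whereas Agr2, a disulfide isomerase needed in mice to fold intestinal mucin, fell from 572 ± 44.2 to 418 ± 29.0 FPKM (SD, n = 3 each, limma adjusted p = 0.0169 and 0.0300). Spdef, a transcription factor of secretory epithelium, did not pass the test.

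In bulk tissue, a change in the number of cells of a type and a change of RNA per cell cannot be told apart, so markers were read beside the members. All 16 genes of a list of duct and luminal epithelial markers had every T2DM library above every vehicle library, against 33.8% of all genes tested. As higher, 11 passed the test, against 10.5%, among them Clu (37.5 ± 4.44 to 126 ± 11.8 FPKM; SD, n = 3 each, limma adjusted p = 0.00133). The list was chosen with earlier results of these data known, so these counts only describe it. The summed FPKM of the 16 genes was 1352 to 1496 in the vehicle group and 3204, 2617 and 2012 in T2DM replicates 1, 2 and 3. Ltf, which encodes the secreted protein lactoferrin, supplied much of this sum, at 503 ± 58.9 and 1200.2 ± 423 FPKM (SD, n = 3 each), and without it the sum ran from 883 to 952 across vehicle libraries and stood at 1610.3, 1363 and 1259 for T2DM. The duct keratin Krt7 was at 2.79 ± 0.308 and 7.08 ± 2.95 FPKM (SD, n = 3 each). Among the 11 members that rose, 9 were highest in T2DM replicate 1 and 8 lowest in T2DM replicate 3. In the list of 16 duct and luminal markers, 15 were highest in T2DM replicate 1 and 11 lowest in T2DM replicate 3. Of the 39 members without a call, 18 were highest in T2DM replicate 1. That library also had the highest median FPKM of tested genes, 4.93 against 4.41 and 4.48 in T2DM replicates 2 and 3. How many of all genes were highest in it was not counted. The part of the duct and luminal markers in the members' rise was not tested. Of the members that rose, Mgat4b and Galnt15 were highest in T2DM replicate 3, and St6galnac1 and Galnt15 were lowest in T2DM replicate 2.

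**Figure D4:**
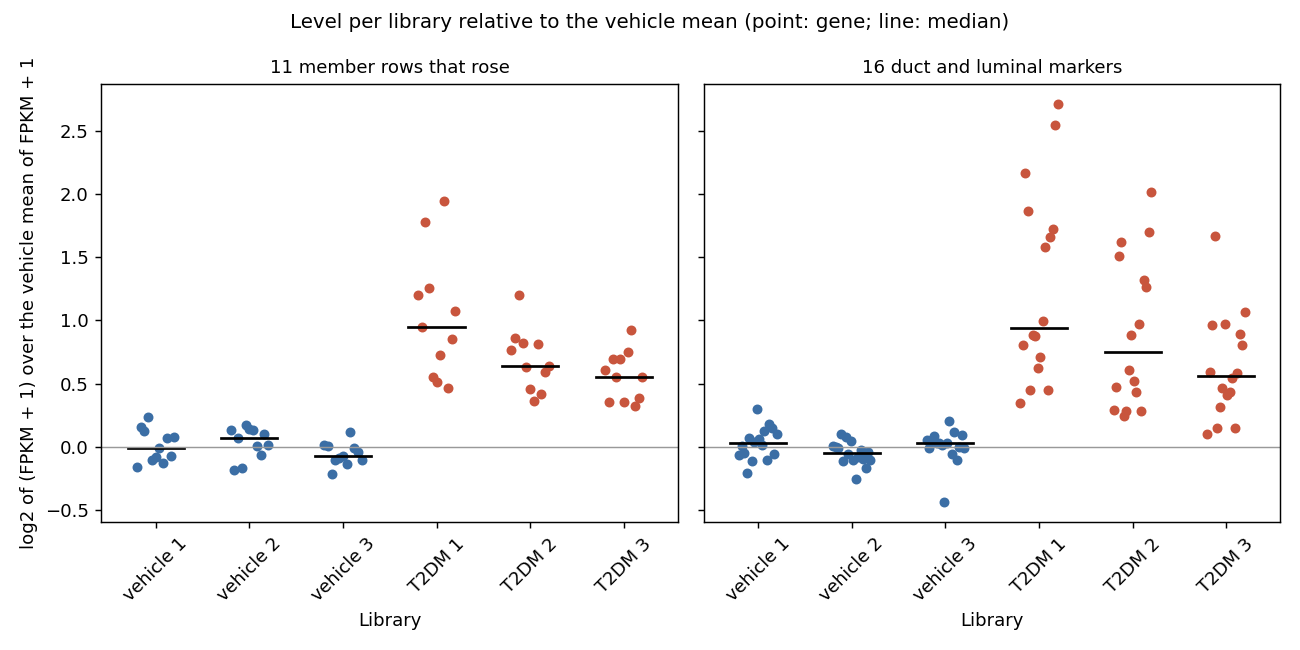
Level of each gene in each library as the log2 of FPKM + 1 over the vehicle mean of FPKM + 1, for the 11 member rows that rose (left) and 16 duct and luminal markers (right), with points for genes and lines for the median. The left rows were picked as higher in T2DM, so the place of their T2DM medians above the vehicle medians follows from that choice. The right list was chosen with earlier results known, and its T2DM medians also stand above. In both panels T2DM replicate 1 has the highest median and T2DM replicate 3 the lowest of the T2DM libraries.

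Markers of other cells were read in the same way. Of 9 acinar markers 1 was lower (Lcn11) and none higher, against 1.70% and 10.5% of all genes tested. All T2DM libraries stood above all vehicle libraries in 2 of them and below in 1 (Lcn11), against 33.8% and 6.10%. The 2 were Car6 (1061 ± 196 to 1630 ± 293 FPKM) and Chrm3 (5.14 ± 0.340 to 7.17 ± 1.31 FPKM; SD, n = 3 each). Neither passed the test (limma adjusted p = 0.0615 and 0.0822). Of the 9 markers, 4 had a difference above 0 and 5 below 0. Their median log2 difference was -0.12, against 0.16 over all genes tested. Bhlha15, another acinar marker, was at 248 ± 32.7 and 202 ± 21.6 FPKM, with overlapping groups (SD, n = 3 each, limma adjusted p = 0.146). Aqp5, the acinar water channel, was at 93.6 to 142 FPKM in the vehicle group and 124 to 149 FPKM in the T2DM group. Aqp5 is also expressed by salivary acini and was highest among the vehicle libraries in replicate 1, so it does not tell these glands apart. Of 17 tested leukocyte rows 3 were higher (Cd79a, Cd79b and Nkg7, with log2 differences of 0.98, 0.94 and 0.84), against 10.5% of all genes tested. Of the muscle markers only Myl2 was tested, without a call. It was listed at 0 in the vehicle libraries and was at 0.235, 0.438 and 4.48 FPKM in the T2DM libraries, so that T2DM replicate 3 stood apart. Of 3 tested goblet and surface epithelium markers 1 was higher (Krt14) and none lower, against 10.5% and 1.70% of all genes tested. All 3 (Krt14, Krt5 and Spdef) had every T2DM library above every vehicle library, against 33.8% of all genes tested. Vehicle replicate 1 stood apart in salivary transcripts, with Bpifa2 at 1127 FPKM against 2.03 to 4.38 FPKM in the other vehicle libraries. Mucl2 was not raised in that library. Without it the differences of the called rows kept their sign, but 2 of the 11 higher rows kept their call, Mgat4a and the longer St6galnac2 model.

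Promoters are shown for 2 of the genes that rose, Muc1 and Mgat4a, since reference promoters were matched for 35 of the 51 member symbols and for 5 of the 11 called ones. They are RefSeq sequences of GRCm38.p6, from 250 bases before to 50 after the start, written in the direction of transcription. Capitals mark TATAAA and GGGCGG, letters of a TATA box and of a GC box.
Muc1, chr3:89228806-89229105, plus strand: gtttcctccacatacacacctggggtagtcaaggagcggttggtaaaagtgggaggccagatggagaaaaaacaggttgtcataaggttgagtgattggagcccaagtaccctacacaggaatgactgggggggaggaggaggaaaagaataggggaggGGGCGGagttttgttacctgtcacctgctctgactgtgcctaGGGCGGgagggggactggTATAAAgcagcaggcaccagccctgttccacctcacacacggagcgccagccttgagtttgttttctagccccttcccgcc
Mgat4a, chr1:37540967-37541266, minus strand: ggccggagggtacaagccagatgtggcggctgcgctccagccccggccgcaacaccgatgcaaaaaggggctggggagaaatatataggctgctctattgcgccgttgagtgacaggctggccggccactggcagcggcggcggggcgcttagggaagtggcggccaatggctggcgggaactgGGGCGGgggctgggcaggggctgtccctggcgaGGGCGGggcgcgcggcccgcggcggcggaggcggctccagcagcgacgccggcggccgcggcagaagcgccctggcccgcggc

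In Muc1 the letters TATAAA begin 31 bases before the start and GGGCGG 91 and 49 bases before it, and in Mgat4a GGGCGG begins 66 and 33 bases before the start. Read on both strands, GGGCGG stood in 28 of the 50 promoters of these 35 symbols (56.0%) and in 35.7% of 32851 promoters of the same length, and TATAAA in 4.0% and 13.6%. The letters CACGTG stood in 2.0% of the member promoters and 7.2% of all, and TTANGTAA in 0.0% and 2.3%, and none of these motifs contains another. The median GC content was 59.0% in member promoters and 52.7% in all. A match is a description of these letters and not of a bound site.

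**Figure D5:**
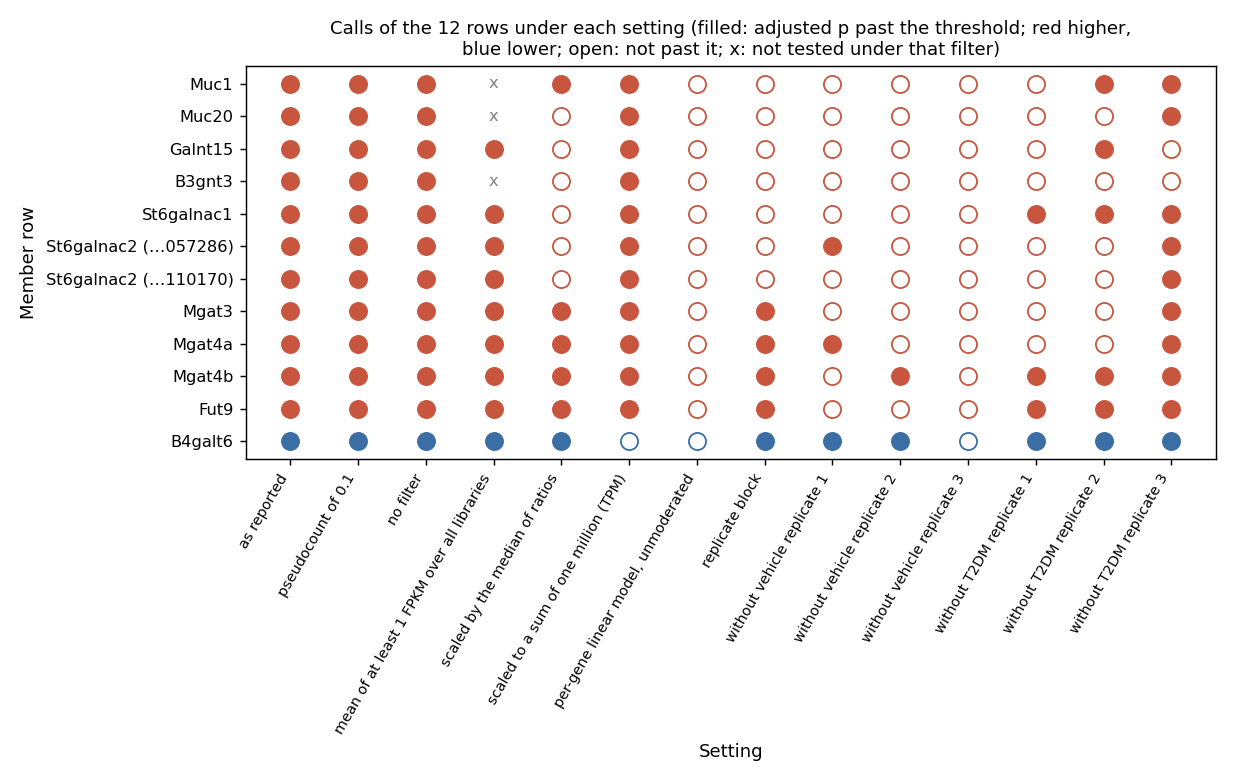
Calls of the 12 member rows under the reported setting and each of the 13 alternatives, where a filled circle is an adjusted p under 0.05, an open one is not, and a cross is a row not tested under that filter. B4galt6 and Mgat4b hold filled circles in more columns than any other row, and the columns of the unmoderated linear model and of the fit without vehicle replicate 3 hold no filled circle.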

How the data were processed

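The authors enriched poly(A) RNA, prepared stranded libraries, removed adaptors (cutadapt), mapped the reads to GRCm38 (HISAT2) and estimated transcript abundance (StringTie 1.2.3). The deposited values are gene-level FPKM that the authors computed with Ballgown 2.6.0, with no further scaling stated. Human builds (hg19, GRCh37) stand in the submitters' processing notes, whereas coordinates of 49 of the 52 member rows equal GENCODE M21 on GRCm38. FPKM hold no read numbers, so depth is unknown and errors are SDs between 3 libraries. The median FPKM of tested genes was 3.77 to 3.97 in the vehicle and 4.41 to 4.93 in the T2DM libraries, and Pearson's r between pairs of libraries on the log2 scale was 0.949 to 0.987.

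Genes that reached a group mean of 0.5 FPKM in either group entered limma 3.58.1 in R 4.3.3 (log2 with a pseudocount of 1, mean-variance trend, no covariate, Benjamini-Hochberg adjustment over 12135 genes). The fit was first tested on simulated data, with changes set on the log2(FPKM + 1) scale in genes above 1 on that scale. It called 56.7% of 67 changes of 1.5-fold, 76.1% of 67 of 2-fold and 93.9% of 66 of 4-fold. A gene without a call can therefore still differ. Alternatives were other filters, pseudocounts, scalings and tests, a replicate block and leaving out each library. Members were assigned to classes by textbook role. The members and lists were chosen with earlier results of these data known. Named genes were the mucins, members past the adjusted p, the 2 most abundant members of each class and, in each list, up to 3 genes of smallest p; any other gene was named with its values known.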

Additional observations from a re-analysis of the deposited data

How the results depend on the processing

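The reported 11 higher and 1 lower members became 5 and 3 with the median-of-ratios scaling, 17 and 0 with FPKM scaled to the same sum in each library (TPM), and 0 and 0 in a per-gene linear model without moderation, in which 16 were higher and 3 lower at an unadjusted p under 0.05 and the smallest adjusted p of a member was 0.0895. Leaving out each library in turn gave 0 to 9 higher and 0 to 1 lower members, fits with fewer samples. At the thresholds of the study's methods the 9 higher and 1 lower became 14 and 0 with the TPM scaling, 6 and 1 with the median-of-ratios scaling, 13 and 1 with a pseudocount of 0.1, and 7 to 9 and 0 to 1 when libraries were left out. The cause of the differences between scalings was not tested.

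By class, the median-of-ratios scaling gave 1 higher transmembrane mucin in place of 2, 0 higher rows for O-glycan initiation, core formation and sialylation, and 2 lower for initiation. Over all genes, it gave 478 higher and 481 lower of 12069 tested. The TPM scaling gave 3 higher for initiation, 2 each for shared capping and the less characterised members, 1 for shared extension, and 0 lower for glycolipids. Over all genes, it gave 3443 higher and 103 lower of 12335 tested. A pseudocount of 0.1 gave 1 higher for shared extension, and the stricter minimum 0 for transmembrane mucins and core formation. The linear model gave 0 in each class. Without 1 library the higher counts ranged from 0 to 2 for transmembrane mucins, 0 to 1 for initiation, 0 for core formation, 0 to 3 for sialylation, 0 to 3 for N-glycan branching and 0 to 1 for capping, and the lower count for glycolipids from 0 to 1.

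Samples with the same replicate number did not deviate together, with correlations of 0.03, 0.02 and -0.00 over the tested genes, so the numbers were not taken to pair the samples. With the replicate block 4 members were higher (Mgat3, Mgat4a, Mgat4b and Fut9) and 1 lower (B4galt6), with 0 higher for transmembrane mucins, O-glycan initiation, core formation and sialylation, and 551 rather than 1271 genes were higher in the whole table. The smallest p that an exact permutation test of 3 against 3 libraries can reach is 0.1, and depth, which would set the counting error of members under 1 FPKM such as Muc1 in the vehicle group, is unknown.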

Other observations

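Levels spanned a wide range among the members: 11 of the 52 rows had a mean over 10 FPKM, 27 lay between 1 and 10 FPKM and 14 under 1 FPKM. Some of the enzymes differed more within a group than between groups. Gcnt2, which branches lactosamine chains into the I antigen, was at 2.95, 1.15 and 2.50 FPKM in the vehicle group and at 2.64, 2.24 and 1.48 FPKM in the T2DM group, so that each group covered much of the range of the other. Mgat1 was at 3.95 FPKM in vehicle replicate 1 and at 1.74 and 1.81 FPKM in the other 2 vehicle libraries, above and below the 2.25 to 2.87 FPKM of the T2DM group.

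Of the members without a call, 28 had a difference above 0 and 11 below 0. Among them 7 had all T2DM libraries above all vehicle libraries (Galnt1, Galnt4, Galnt18, St3gal6, B4galt3, Fut11 and B3gnt9) and 2 had all below (Galnt7 and Fut4). Over all tested members, called or not, such shares were close to the 33.8% and 6.10% of all genes tested. Several members share their place in the genome with another gene, which can divide or add reads. Galnt4 overlaps Poc1b, Galnt2 overlaps Gm20388 and B3gnt2 overlaps Gm28048 on the same strand, and St3gal6 overlaps Dcbld2 on the other strand. St6galnac4 and St6galnac6 lie 10 bases apart.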
